A study of Oryctolagus cuniculus with 6 samples.

Results

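The mitochondrial ribosomal RNAs 12S and 16S were followed in RNA sequencing libraries from the left ventricle of adult rabbits. They are 2 of the 23669 gene IDs in the deposited tables, ENSOCUG00000029082 for 12S and ENSOCUG00000029084 for 16S. Both were chosen by their place in a run of 37 consecutive IDs, where they take places 2 and 4. That order is the gene order of vertebrate mitochondrial genomes, which opens with tRNA-Phe, 12S, tRNA-Val, 16S, tRNA-Leu and ND1. The deposited tables carry no gene names, so every name of a mitochondrial gene given here is a name by place.

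All 6 libraries belong to 1 group. The rabbits, whose strain and genotype the labels do not give, were sham-operated: a suture was placed at a coronary artery with the vessel left patent. The heart was taken 3 weeks later and washed free of blood. The group is thus operated, non-infarcted myocardium, and no unoperated or infarcted heart was analysed here. The only division in the labels is the number that opens each title. Libraries 1 to 3 carry 13872 and libraries 4 to 6 carry 14285, and the labels do not state its meaning. Either of 2 RNA extraction kits was used, and the labels do not state which library had which, so kit, prefix and animal cannot be told apart. Nothing ties each library to an animal, and the p-values below reflect library-to-library spread, which may be technical in part. Bulk libraries cannot tell fewer cells of a type from less RNA per cell. The tissue label could not be set against marker genes, because the IDs have no names.

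Mitochondria make their own ribosomes. The 12S rRNA is the RNA of the small subunit, which decodes the messenger RNA, and the 16S rRNA is the RNA of the large subunit, which forms the peptide bond. Both are read from the heavy-strand promoter region as part of a long precursor, and the tRNAs that flank them are cut out to release the mature rRNAs. Downstream of 16S on the same precursor strand lie the mRNAs of ND1 and ND2, subunits of respiratory complex I, and of COX1, the catalytic subunit of cytochrome c oxidase. The heart is rich in mitochondria. The library kit named in the labels removes ribosomal RNA, mitochondrial rRNA included, before sequencing, so the counts are what was left after depletion, and no undepleted library was analysed here.

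Each library held 25427072 to 34882484 fragments, of which 9829581 to 12514152 were counted on genes. The strand of the counts followed the order of places. Own and opposite strand are meant relative to each ID, so counts opposite to a light-strand place lie on the strand of the heavy-strand products. Of the 28 places that vertebrate mitochondria encode as heavy-strand products, 16 had 100 or more counts over both strands and all libraries, and all 16 had more counts on their own strand. Of the 9 light-strand places, 7 reached this minimum, and all 7 had more on the opposite strand in the sum over libraries. Such counts are not the products of these places. The tRNA-Ser1 place, next to COX1, had 3708 to 119493 opposite-strand counts in a library, and 0 when counted without regard to strand. At the ND6 place the direction of the sum rested on libraries 1 and 6, and the other 4 libraries had more counts on its own strand. The tRNA-Gln place had more on its own strand in libraries 2 (39 against 24) and 3 (31 against 17). The tRNA-Phe and tRNA-Leu places next to the rRNAs had 0 counts in all 6 libraries, which allows up to 0.240 to 0.305 CPM (counts scaled to a library total of 1000000) per library, and the tRNA-Val place between them had 1 count. The rRNAs themselves had 441075 (12S) and 1647814 (16S) counts over the 6 libraries.

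Left after depletion, 16S remained among the most abundant transcripts of every library. It made up 5.40%, 2.35% and 1.35% of counts on genes in libraries 1 to 3, and 2.03%, 1.88% and 1.76% in libraries 4 to 6. Library 1 stood far above the other five, the next being library 2. The mean was 2.46% ± 1.48 (SD, n = 6), or 1.89% ± 0.13 (SD, n = 3) under 14285 alone. Its rank by counts was 4 or 5 among all IDs in each of the 6 libraries. Wilson 95% intervals spanned 5.39% to 5.42% in library 1 and 1.34% to 1.35% in library 3, so counting error is far below the spread between libraries; such intervals cover counting error only.

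The 12S rRNA was lower and spread more evenly from high to low. It made up 1.40%, 0.964% and 0.419% of counts on genes in libraries 1 to 3, and 0.317%, 0.548% and 0.351% in libraries 4 to 6. Library 1 was again the highest and library 2 the next, while library 3 fell among the 14285 libraries. The mean was 0.667% ± 0.431 (SD, n = 6), and the rank ran from 6 in libraries 1 and 2 to 21 in library 4. Together the rRNAs took 1.77% to 6.81% of counts on genes, or 0.625% to 2.64% of all fragments.

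**Figure D1:**
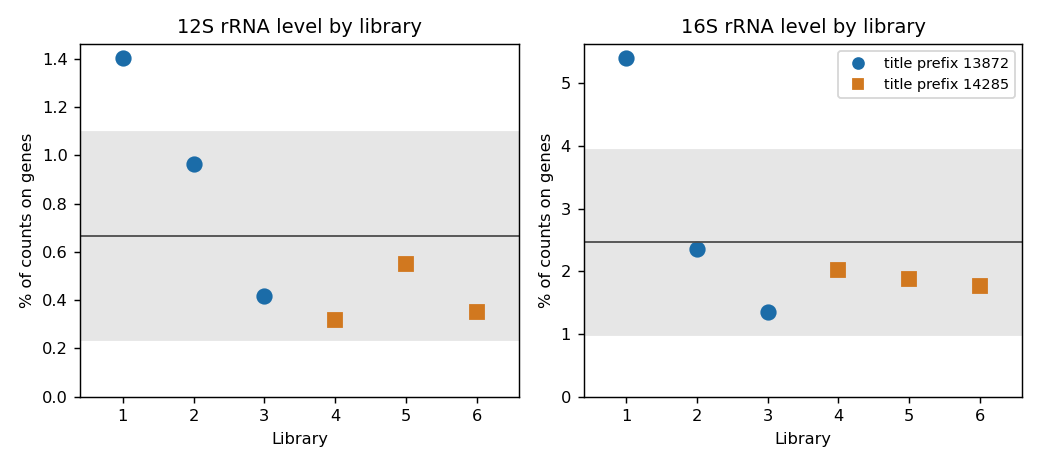
Level of 12S (left) and 16S (right) rRNA in libraries 1 to 6, as % of the library's counts on genes; circles are title prefix 13872, squares 14285, the line is the mean of 6 libraries and the grey band 1 SD on either side. Library 1 is highest for both, at 1.40% and 5.40%, and for 16S the other libraries lie between 1.35% and 2.35%.

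By mean level 16S was in place 4 of all IDs and 12S in place 9. Directly above 16S stood ENSOCUG00000011037 with 5.75% ± 1.02 of counts on genes, and directly below it ENSOCUG00000024537 with 1.81% ± 0.19 (SD, n = 6). The range of 16S, 1.35% to 5.40%, covered the whole range of the ID below it and overlapped that of the ID above it, whose lowest library was at 4.27%. The neighbours of 12S were ENSOCUG00000018808 with 0.692% ± 0.107 and ENSOCUG00000013131 with 0.651% ± 0.081, and neither differed from 12S by more than its spread. Counts here are not scaled for gene length, which was not used, so these ranks order counts and not molecules.

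Both rRNAs varied more than the median transcript, and for 16S much of this spread was library 1. On the log2 CPM scale with TMM normalization, the SD over 6 libraries was 0.86 for 12S and 0.71 for 16S, against a median of 0.23 for the 9277 IDs whose mean reached 5 CPM. The rRNAs ranked 123 (12S) and 213 (16S) from the top of these IDs by SD. For ND1 the SD was 0.75, for ND2 0.50 and for COX1 0.48. From lowest to highest library, 12S spanned 4.43-fold and 16S 4.01-fold. Without library 1 the spans were 3.05-fold and 1.74-fold, and the SDs 0.63 (rank 313) and 0.35 (rank 1971), against the same median of 0.23.

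The mitochondrial ribosome holds its rRNAs as a pair, and the ratio of their counts does not depend on the rest of the library. The counts are not scaled for gene length and are what depletion left of each rRNA, so this is not a ratio of molecules. The 16S to 12S count ratio was 3.85, 2.44 and 3.22 under 13872 (libraries 1 to 3), and 6.40, 3.43 and 5.02 under 14285 (libraries 4 to 6). It thus differed 2.63-fold between the lowest library, 2, and the highest, 4, around a mean of 4.06 ± 1.43 (SD, n = 6). Exact (Clopper-Pearson) 95% intervals were at most 2.27% of the ratio wide, but they cover counting error only, and no library was repeated to give the technical error of the ratio. The prefixes overlapped, at 3.17 ± 0.71 under 13872 and 4.95 ± 1.48 under 14285 (SD, n = 3 each; exact two-sided permutation p = 0.2). With 3 against 3 the smallest p this test can give is 0.1.

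The 3 libraries with the highest ratios, 1, 4 and 6, were also those with counts at the mRNA places further along the run. At the COX2 place, which encodes a subunit of cytochrome c oxidase, libraries 1, 4 and 6 held 0.809%, 0.740% and 0.803% of counts on genes. Libraries 2, 3 and 5 held 0.00104%, 0.000591% and 0.000608% there, and they also had larger shares of fragments mapped to several places, 8.02%, 7.48% and 8.64% against 6.75%, 7.18% and 6.85% for the former. No such gap was seen at the rRNAs, where every library had at least 34621 counts on 12S and 166406 on 16S. The part of these features in the ratio was not tested.

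**Figure D2:**
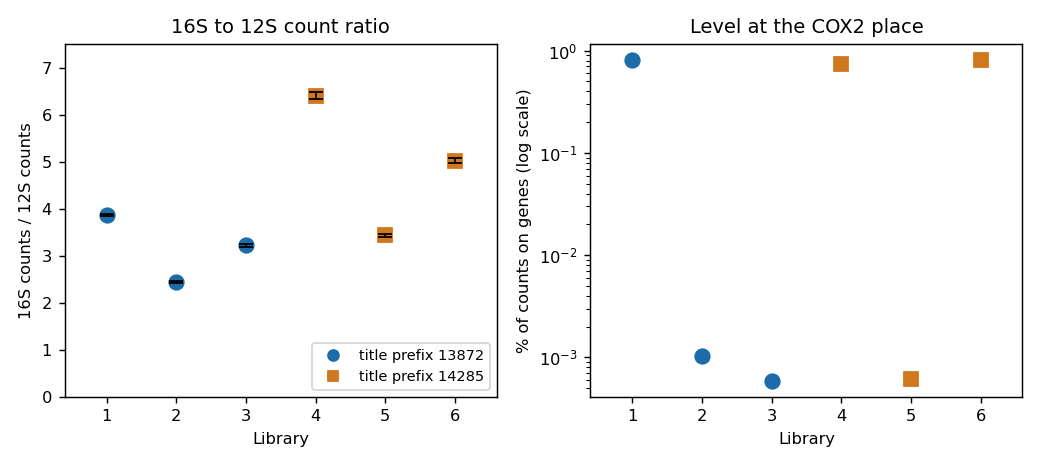
Left, 16S counts over 12S counts in each library, with exact 95% counting intervals as black bars; right, the level at the COX2 place as % of counts on genes on a log axis; circles are title prefix 13872, squares 14285. Libraries 1, 4 and 6 have the 3 highest ratios (3.85, 6.40 and 5.02) and hold 0.740% or more at the COX2 place.

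Read counts of 16S exceeded those at 12 of the 13 mRNA places in every library, COX1 being the exception each time. For 12S the same held in libraries 1, 2, 3 and 5. In library 4 the places of COX1, COX2, ATP6 and ND5 held more counts than 12S, and in library 6 CYTB did as well. COX2 and COX1 belong to cytochrome c oxidase, ATP6 to ATP synthase, ND5 to complex I and CYTB to complex III. The rRNAs together made up 42.2%, 42.9% and 29.6% of the counts of the whole run in libraries 1 to 3, and 18.0%, 31.0% and 16.5% in libraries 4 to 6. The places from COX2 on were nearly absent in libraries 2, 3 and 5, with 102, 73 and 65 counts at COX2. Libraries 1, 4 and 6 had 90913, 80928 and 100473 there. Neither these shares nor the number of places below 12S are therefore on a like footing across libraries. Libraries 4 and 6, with the lowest shares, had the largest sums over the mRNA places, 1164272 and 1336541 counts.

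**Figure D3:**
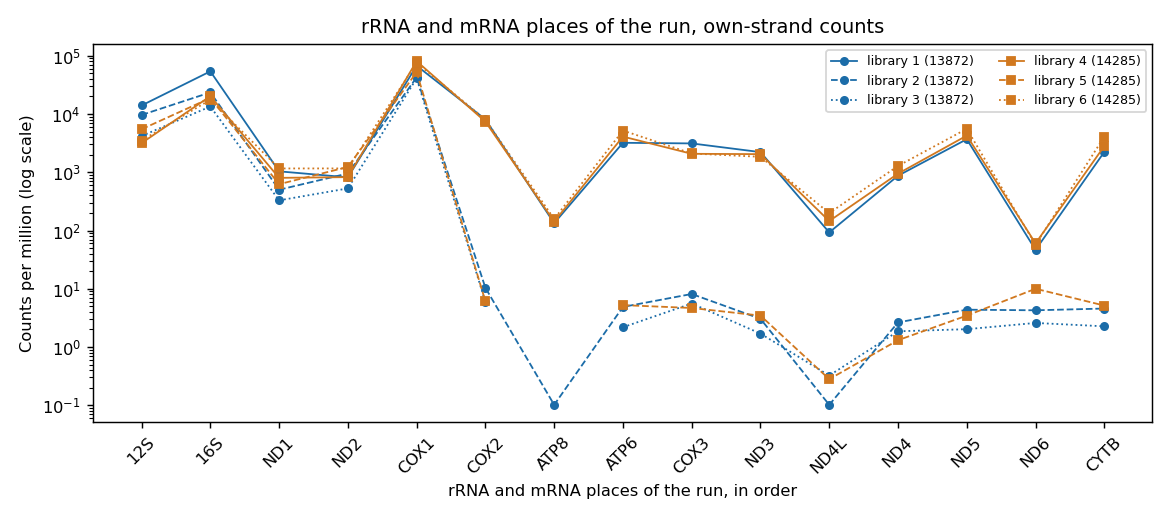
Own-strand CPM (log axis) at the rRNA and mRNA places of the run in their order, 1 line per library, circles for title prefix 13872 and squares for 14285; a place with 0 counts has no point. At each place from 12S to COX1 the 6 libraries lie within 4.43-fold of each other, and from COX2 on libraries 2, 3 and 5 lie far below libraries 1, 4 and 6.

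The mRNA nearest to 16S is that of ND1. It took 0.104%, 0.0502% and 0.0330% of counts on genes in libraries 1 to 3 and 0.0802%, 0.0624% and 0.116% in libraries 4 to 6. For each ND1 count there were 52.1, 46.8 and 40.9 counts of 16S under 13872 (libraries 1 to 3), and 25.3, 30.1 and 15.1 under 14285 (libraries 4 to 6). All 3 libraries under 13872 thus lay above all 3 under 14285, with means of 46.6 ± 5.6 and 23.5 ± 7.7 (SD, n = 3 each; exact permutation p = 0.1, the smallest possible). The 12S to ND1 ratio parted the prefixes as well, with 13.5, 19.2 and 12.7 against 3.95, 8.78 and 3.02.

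ND2, the next mRNA, gave a like order. The 12S to ND2 ratio was 17.1, 10.1 and 7.92 in libraries 1 to 3 and 3.83, 4.44 and 3.01 in libraries 4 to 6 (exact permutation p = 0.1). The 16S to ND2 ratio was 66.0, 24.6 and 25.5 against 24.5, 15.2 and 15.1. Here the prefixes touched, since the exact 95% intervals of libraries 2 (24.1 to 25.1) and 4 (24.0 to 25.1) overlapped, and library 1 stood far above the rest. Over the 12 measures compared between prefixes, the lowest adjusted p of the exact permutation test was 0.2. Its smallest possible unadjusted p is 0.1, so no measure could have passed 0.05 after correction, and this says nothing about the ratios.

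The same count over all tested IDs gives the background of these ratios. With 12S as numerator, 12.9% of 11903 IDs had a ratio that was higher in each 13872 library than in each 14285 library, and with 16S as numerator 2.29% had. ND1 and ND2 were in that number for both rRNAs. For COX1, whose counts exceeded those of 16S, the prefixes overlapped with either numerator. The 16S to COX1 ratio was 0.801, 0.551 and 0.328 in libraries 1 to 3 and 0.251, 0.361 and 0.232 in libraries 4 to 6, and the 12S to COX1 ratio ranged from 0.0392 in library 4 to 0.226 in library 2.

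**Figure D4:**
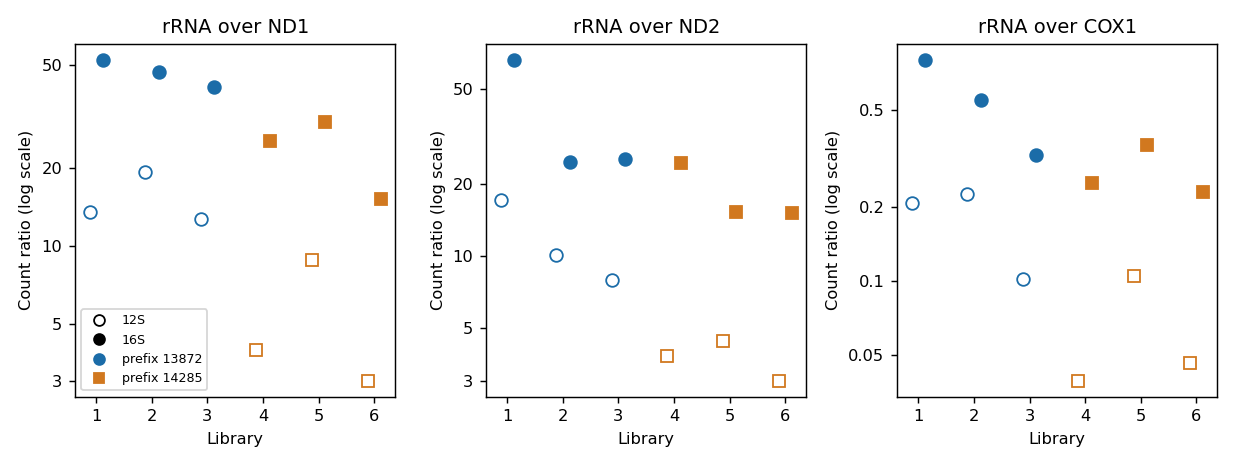
Count ratios of 12S (open symbols) and 16S (filled symbols) to ND1, ND2 and COX1 in each library, on log axes with their own ranges; circles are title prefix 13872, squares 14285. Over ND1 the 13872 libraries lie at 40.9 to 52.1 for 16S and the 14285 libraries at 15.1 to 30.1, while over COX1 the prefixes overlap.

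The rRNA levels were then compared between prefixes in an edgeR quasi-likelihood fit across all 11945 IDs with enough counts. Neither rRNA passed the threshold of an adjusted p under 0.05, which 0.0419% of the IDs did. For 12S the log2 fold change, 14285 over 13872, came to -1.17 (SE 0.43, unadjusted p = 0.0254, adjusted p = 0.189 by Benjamini-Hochberg), with means of 0.405% ± 0.125 and 0.928% ± 0.493 (SD, n = 3 each). An unadjusted p under 0.05 was reached by 21.0% of the IDs. For 16S it was -0.65 (SE 0.45, adjusted p = 0.432, edgeR), and without library 1 it was 0.10, so that the sign rested on this library.

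All 13 mRNA places were tested in the same fit, and 0 were called by edgeR in either direction, with 0 at an unadjusted p under 0.05. Their log2 fold changes ranged from 0.44 to 1.92 with a median of 1.20, beside a median of -0.01 over all IDs. ND1 stood at 0.52 (SE 0.43), ND2 at 0.53 (SE 0.26) and COX1 at 0.52 (SE 0.26). From COX2 on, each prefix holds both high and near-absent libraries, and the SEs were 1.03 or more. Of the 22 tRNA places, 6 had enough counts to test and 0 were called.

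Levels of 12S and 16S were also set against each other over the 6 libraries. Pearson's r of their log2 CPM was 0.818 (exact permutation p = 0.0278, adjusted p = 0.194 over 7 relations) and Spearman's rho 0.6 (exact permutation p = 0.242, adjusted p = 1). Without libraries 1 and 2, the farthest from the 12S median, r was -0.19, so the relation rests on those libraries. Of the 6 relations of either rRNA with ND1, ND2 or COX1, the largest was 16S with ND1 (r = 0.529, exact permutation p = 0.288; rho = 0.257, p = 0.658), and its sign turned to -0.81 without libraries 1 and 3. Shares of one total are not independent, which applies to each of these values.

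Among the 9260 IDs outside the run that averaged at least 5 CPM, those most like each rRNA by Pearson's r over the 6 libraries were picked out. For 12S they were ENSOCUG00000004569 (r = 0.993) and ENSOCUG00000002573 (r = 0.980). These r values are on log2 CPM with TMM normalization, while the CPM values printed here are without it. ENSOCUG00000004569 moved only from 81.7 to 101 CPM. Its profile was thus like that of 12S on the scale of r, but the size of the swing was not. For 16S they were ENSOCUG00000000706 (r = 0.991), at 387 to 536 CPM, and ENSOCUG00000010604 (r = 0.984). The last was at 53.8 CPM in library 1 and at 19.0 to 25.1 CPM in the others. With 6 points, an r above 0.9 was reached by 0.497% of these IDs for 12S and by 0.248% for 16S.

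The strand opposite to the rRNAs gave few counts, and these parted the prefixes. Opposite to 12S there were 182, 91 and 121 counts in libraries 1 to 3 and 4, 2 and 2 in libraries 4 to 6. Opposite to 16S there were 222, 213 and 288 against 53, 23 and 28. No 14285 library reached the lowest 13872 library for either rRNA, although the counts on the rRNAs' own strand overlapped for 16S and 12S alike.

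As a share of both strands, the opposite strand of 12S held 0.115%, 0.0959% and 0.233% in libraries 1 to 3 and 0.0116%, 0.00342% and 0.00456% in libraries 4 to 6. For 16S the shares were 0.0365%, 0.0921% and 0.173% against 0.0239%, 0.0114% and 0.0127%. Summed within a prefix, the rate of opposite-strand to own-strand counts was 22.2-fold higher under 13872 for 12S (exact 95% interval 11.2 to 51.8, from 394 and 8 counts) and 4.45-fold higher for 16S (3.62 to 5.52, from 723 and 104 counts). These intervals cover counting error only. The exact permutation test of the shares gave p = 0.1 for both, the smallest possible.

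In an edgeR fit across the opposite-strand counts of all 1999 IDs with enough of them, 16S was called lower under 14285, as were 0.550% of the IDs (11 in number, and 1 was higher). The log2 fold change of 16S was -2.58 (SE 0.34, adjusted p = 0.0197, edgeR). The 12S rRNA was among the 11 too, but it passed the filter on low counts only through the 13872 libraries, where it is high, so its call is no support and its values are the counts and the ratio above. With 1 library left out, 16S lost its call without library 2, 5 or 6 (adjusted p = 0.105, 0.0618 and 0.141, edgeR). This comparison was chosen after the values had been seen. Among the 13 mRNA places, COX1 was also lower (log2 fold change -1.61, SE 0.21, edgeR adjusted p = 0.0197), and the other 12 were not called. ND1 stood at 0.03 (SE 0.19) and ND2 at 0.52 (SE 0.26).

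Not all transcripts did this. Of 1115 IDs with 1000 or more own-strand counts in each library, 7.26% had an opposite-strand share that was lower in each 14285 library than in each 13872 library, and the rRNAs and COX1 were among these 81 IDs. In 40 IDs the share was higher in each 14285 library. By mean share under 13872 over that under 14285, 12S ranked 70 and 16S 94 of the 1056 IDs with such a ratio. This ranking kept any ID with no opposite-strand counts under 14285, whose ratio is infinite. It therefore does not show how many IDs differed more than the rRNAs. In the sum over IDs outside the run, the share was 1.67%, 1.50% and 1.61% in libraries 1 to 3 and 1.38%, 1.31% and 1.30% in libraries 4 to 6. In the sum over all IDs, the run included, the prefixes overlapped and the means lay the other way, at 1.75% ± 0.37 under 13872 and 1.88% ± 0.56 under 14285 (SD, n = 3 each). The tRNA-Ser1 place weighed heavily in that sum. It held 68532, 119493 and 88100 of the 248925, 267925 and 251922 opposite-strand counts in libraries 1, 4 and 6. In libraries 2, 3 and 5 it held 3708, 5188 and 5391. Counted without regard to strand, this place had 0 counts in each library. COX1 was then short of the sum of its strands by 70505, 121029 and 90753 counts in libraries 1, 4 and 6. Whether the same fragments were counted at both places was not tested, so the sum over all IDs need not reflect opposite-strand RNA. ND1 and ND2 had much larger opposite-strand shares, 7.96% to 22.5% and 4.10% to 6.82%, and for both the prefixes overlapped. Whether the counts opposite to the rRNAs come from light-strand transcripts or from misassigned strands was not tested.

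**Figure D5:**
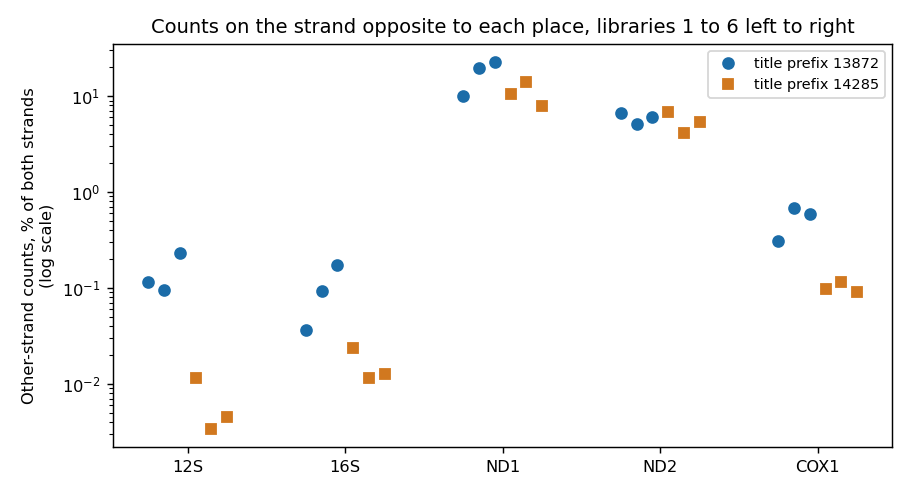
Counts on the strand opposite to each place as % of the counts on both strands (log axis), for 12S, 16S, ND1, ND2 and COX1, with libraries 1 to 6 from left to right; circles are title prefix 13872, squares 14285. For 12S, 16S and COX1 every square lies below every circle, for ND1 and ND2 the prefixes overlap.

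Overlapping features hardly touched the rRNA counts. Counted without regard to strand, 12S was at most 2 counts and 16S at most 7 counts short of the sum of its strands in any library. COX1 was short by 4990 to 121029 counts, which the table without strand did not give to 1 gene. With those counts the mean 16S to COX1 ratio was 0.446, against 0.421 with the stranded counts.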

How the data were processed

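RNA was depleted of ribosomal RNA and made into stranded libraries, per the labels' protocols. The authors deposited raw counts of fragments for each gene, laid out as STAR writes them; the submitters' processing notes name STAR, DESeq2 and the build OryCun2.0. Their versions and settings, and the annotation release, were not given in the sources used here. Column 4 was taken as the own strand and column 3 as the other strand. The 4 rows that name no gene (60.7% of fragments at the mean) stayed out of library sizes and tests. None of the 38822 rows of the mOryCun1.1 reference table carries an Ensembl ID (0 matched), and no sequence, coordinate or gene length of the rRNAs was used here.

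Levels are shares of column 4 gene counts. Prefixes were compared with edgeR 4.0.16 in R 4.3.3 (TMM, filterByExpr, quasi-likelihood test, Benjamini-Hochberg over all IDs, threshold 0.05), and single values with an exact two-sided permutation test. The edgeR fit was also run on simulated counts with known changes and the same dispersion for every ID. Those counts did not carry the spread of the rRNAs seen here, so they do not bear on its results for them. Standard errors are |log2 fold change| divided by the root of F. Spread and likeness used log2 TMM CPM with a prior count of 2. IDs outside the run were named by a rule: the 2 most like each rRNA, and those adjacent in mean level, of which 1 on either side is printed. DESeq2 1.42.0, other scalings, filters, columns and left-out libraries were alternatives. The rRNAs, their neighbours, lists and tests were chosen with earlier results of these data known.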

Additional observations from a re-analysis of the deposited data

Results flagged for a closer look

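In 27 sets of 6 values, a screen for single distant libraries marked 5; chance marks about 1 in 20, and the sets share libraries and counts. All 5 are library 1. It held 5.40% of counts on genes on 16S, with the next library at 2.35%, and 6.81% on both rRNAs, with the next at 3.31%. Of all fragments it held 2.10% on 16S and 2.64% on both rRNAs, with the next libraries at 0.872% and 1.22%. Its 16S to ND2 ratio was 66.0, with the next at 25.5. Its 12S level of 1.40% did not stand out in this way, with the next library at 0.964%.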

How the results depend on the processing

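The mean 16S share was 0.966% when taken over all fragments, a larger denominator; other scalings and columns moved the means of the shares and ratios by less than 1 SD, as did leaving out any 1 library. The 16S log2 fold change between prefixes was -1.02 to 0.10 with 1 library left out and reversed to 0.10 without library 1. Calls on the own strand numbered 5, against 508 with DESeq2, 79 with no low-count filter, 36 with robust edgeR and 1 to 2 with 1 library left out, and neither rRNA was among them under any of these. Calls on the other strand numbered 12, against 22 with DESeq2, 20 when scaled by the own-strand library size and 1 to 10 with 1 library left out; the log2 fold change of 16S then ranged from -3.10 to -2.31. Fewer libraries enter each such fit; other causes were not tested. Scaling by the own-strand library size moved the median log2 fold change of all other-strand counts from -0.01 to -0.14, and 16S was lower and called with it and with DESeq2. The call of 12S on the other strand is not used, since it passed the filter only through the 13872 libraries. Without the 2 libraries farthest on the x axis, r reversed to -0.19 (12S and 16S), -0.44 (12S and ND1), -0.81 (16S and ND1), -0.61 (16S and ND2) and -0.64 (16S and COX1). Without library 1, r of 12S and ND1 was -0.43, and r of 12S with the other places and of 16S ranged from -0.72 to 0.60. On linear CPM, r was -0.087 for 12S and ND2 and -0.092 for 16S and ND2. Robust edgeR, the other-strand fits and the correlations and spread without library 1 were added after seeing the data. Low counts limit the other-strand values of 12S under 14285 (2 to 4 in a library) and the tRNA places beside the rRNAs. They also limit the places from COX2 on in libraries 2, 3 and 5. These libraries were not shallow, with 9829581, 12350023 and 10685569 counts on genes, against 11235265, 10936205 and 12514152 in libraries 1, 4 and 6. No paired analysis was possible because all libraries share 1 group.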
